A study of Homo sapiens with 4 samples.

Results

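A pair of runs of neighbouring transcript identifiers on chromosome 6 had higher signals on 1 of 4 arrays, and the named identifiers that carried the difference were those of the large histone gene cluster. The runs are the identifiers that begin with TC06 and have the running numbers 169 to 330 (first run) or 1298 to 1430 (second run). They hold 293 of the 60789 identifiers of the table, 160 in the first run and 133 in the second, against 3795 other TC06 identifiers. The running numbers were selected on measured values, since bright identifiers there stood out on the array of STMN1 replicate 2, so the height of that array in the runs is a description of the choice and carries no test.

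The cells were KYSE 170, an established esophageal cancer cell line, and all of them were stably transfected with a pCMV6 plasmid and selected with G418 at 200 µg/ml. In 1 group the plasmid carried the full-length cDNA of STMN1, which encodes the microtubule-destabilising protein stathmin, and in the other it was empty (vector). Each group had 2 arrays, replicates 1 and 2, described in the labels as biological repeats. The labels speak of stable clones but do not say whether the 2 arrays of a group came from 1 clone, from separate clones or from separate cultures, so any p-value here measures only the spread between these samples.

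Replication-dependent histone genes encode the core histones H2A, H2B, H3 and H4, around which DNA is wound, and the linker histone H1. In human cells most of them lie in a large cluster on the short arm of chromosome 6, with a smaller set on chromosome 1. Their transcripts build up in S phase, when new DNA has to be packed, and end in a stem-loop in place of a poly(A) tail. The genes are short, have no introns, and resemble each other closely within a family, so an array probe can read several of them.

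The promoters below show what the genes of the runs look like upstream, from 250 bases before to 50 bases after the start of the gene, taken from RefSeq on GRCh38.p14. H2BC11 and H2BC10 rank highest among the histone genes listed alone further down, and H1-2 is the highest-ranked linker histone gene there. H2BC9, which ranks above H1-2, is not shown. ABT1 was chosen as a bright neighbour in the first run whose signal on STMN1 replicate 2 was close to that on the other arrays. Capitals mark 3 motifs on either strand: the octamer ATTTGCAT, which reads ATGCAAAT on the other strand, the CCAAT box, which reads ATTGG there, and the TATA box with the letters TATAAA, which reads TTTATA there. Where TATAAA and TTTATA overlap, both are in capitals.
H2BC10, chr6:26272681-26272980, plus strand: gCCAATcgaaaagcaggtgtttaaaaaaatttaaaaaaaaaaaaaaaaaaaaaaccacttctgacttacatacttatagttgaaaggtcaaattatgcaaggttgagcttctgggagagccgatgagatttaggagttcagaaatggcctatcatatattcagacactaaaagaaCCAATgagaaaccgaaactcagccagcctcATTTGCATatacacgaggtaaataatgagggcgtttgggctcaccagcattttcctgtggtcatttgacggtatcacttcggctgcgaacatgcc
H2BC11, chr6:27132746-27133045, minus strand: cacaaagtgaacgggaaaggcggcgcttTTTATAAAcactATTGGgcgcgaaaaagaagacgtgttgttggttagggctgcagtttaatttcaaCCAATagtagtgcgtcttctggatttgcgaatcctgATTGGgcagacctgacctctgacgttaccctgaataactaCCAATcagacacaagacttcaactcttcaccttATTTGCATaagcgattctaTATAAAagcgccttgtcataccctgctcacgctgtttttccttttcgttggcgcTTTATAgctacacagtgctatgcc
H1-2, chr6:26056421-26056720, minus strand: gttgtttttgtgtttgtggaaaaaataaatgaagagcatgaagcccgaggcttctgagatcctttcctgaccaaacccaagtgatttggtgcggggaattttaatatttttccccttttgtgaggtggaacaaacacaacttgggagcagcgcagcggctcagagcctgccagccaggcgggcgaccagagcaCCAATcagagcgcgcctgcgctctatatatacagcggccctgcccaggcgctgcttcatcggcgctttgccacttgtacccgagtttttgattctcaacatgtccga
ABT1, chr6:26596703-26597002, plus strand: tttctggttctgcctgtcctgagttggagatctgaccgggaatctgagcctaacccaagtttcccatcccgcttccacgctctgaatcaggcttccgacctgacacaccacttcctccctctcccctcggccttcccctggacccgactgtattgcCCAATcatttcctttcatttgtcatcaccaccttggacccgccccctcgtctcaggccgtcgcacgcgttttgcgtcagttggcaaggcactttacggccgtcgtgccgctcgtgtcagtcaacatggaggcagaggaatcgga
The octamer was present in the H2BC10 and H2BC11 windows and in neither the H1-2 nor the ABT1 window, whereas CCAAT was present in all of them. Over the 27305 promoters searched, 1.8% held the octamer, 35.7% held CCAAT and 12% held TATAAA. Among the 13 promoters matched to bright members that list 1 histone gene, the octamer was in 7, CCAAT in 13 and TATAAA in 7. Among the 9 H2B promoters of that set the counts were 6, 9 and 6. Among the 9 promoters matched to bright members that list 1 other gene they were 0, 5 and 1. These are letter matches in a fixed window and do not show that a factor was bound.

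The 4 arrays were close in overall brightness, with medians of 3.6 to 3.72 on the log2 scale and 18.2% to 19.1% of identifiers at 6 or more. The small differences followed the replicate number. Medians were 3.72 (STMN1) and 3.71 (vector) on the replicate 1 arrays and 3.6 on both replicate 2 arrays. In the same order, 18.3%, 18.2%, 18.7% and 19.1% of identifiers lay at 6 or more. The identifier that lists STMN1 together with the microRNA gene MIR3917 had signals of 5.86 and 5.77 on the arrays labelled STMN1 and 6.11 and 6.13 on the vector arrays. It was therefore not higher on the arrays labelled STMN1 (log2 difference -0.3, SE 0.14, adjusted p = 0.928 in limma), and because it is shared by 2 genes it does not settle the labels. Where a direction is given below, STMN1 and vector are the labels of the arrays. Among squamous epithelium markers, the adhesion gene DSG3 (8.78 to 9.63) and the transcription factor gene SOX2 (9.18 to 10.2) were bright on every array. The basal keratin gene KRT5 had 6.25 and 7.23 on the STMN1 arrays and 9.01 and 8.56 on the vector arrays, and KRT14 lay between 5.24 and 6.29. None of the fibroblast and leukocyte markers found on the array was bright.

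The naming table gives at least 1 gene for 118 of the 293 members: 91 list 1 gene and 27 list several. The 54 members of the first run that list 1 gene follow the RefSeq order of chromosome 6 in 53 of 53 neighbouring pairs, from H2BC5 to POLR1H, and 39 of them lie on the plus strand and 0 on the minus strand (15 have no strand in the table used). The 37 of the second run follow it in 35 of 36 pairs, from KIF13A to H1-5, with 32 on the minus strand and 0 on the plus strand. In the RefSeq order 25 of the 54 genes and 15 of the 37 genes lie within the span of the other run. The runs are thus overlapping stretches of the same chromosome arm, read from opposite strands.

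Here a member is called bright when its mean log2 signal over the 4 arrays is at least 6. A high signal on STMN1 replicate 2 raises that mean, so a member can pass through that array alone. Identifiers with identical values were counted once, which leaves 268 members and 92 bright ones, 49 in the first run and 43 in the second. The excess of STMN1 replicate 2 is its log2 signal minus the mean of the other 3 arrays, taken after the median of all bright identifiers had been subtracted from every array. The median excess was 0.59 in the first run (1.5-fold) and 0.74 in the second (1.67-fold), against -0.02 in the 592 other bright TC06 identifiers, which gives contrasts of 0.6 and 0.76. The plot of excess by running number shows how the values are spread over each run.

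**Figure D1:**
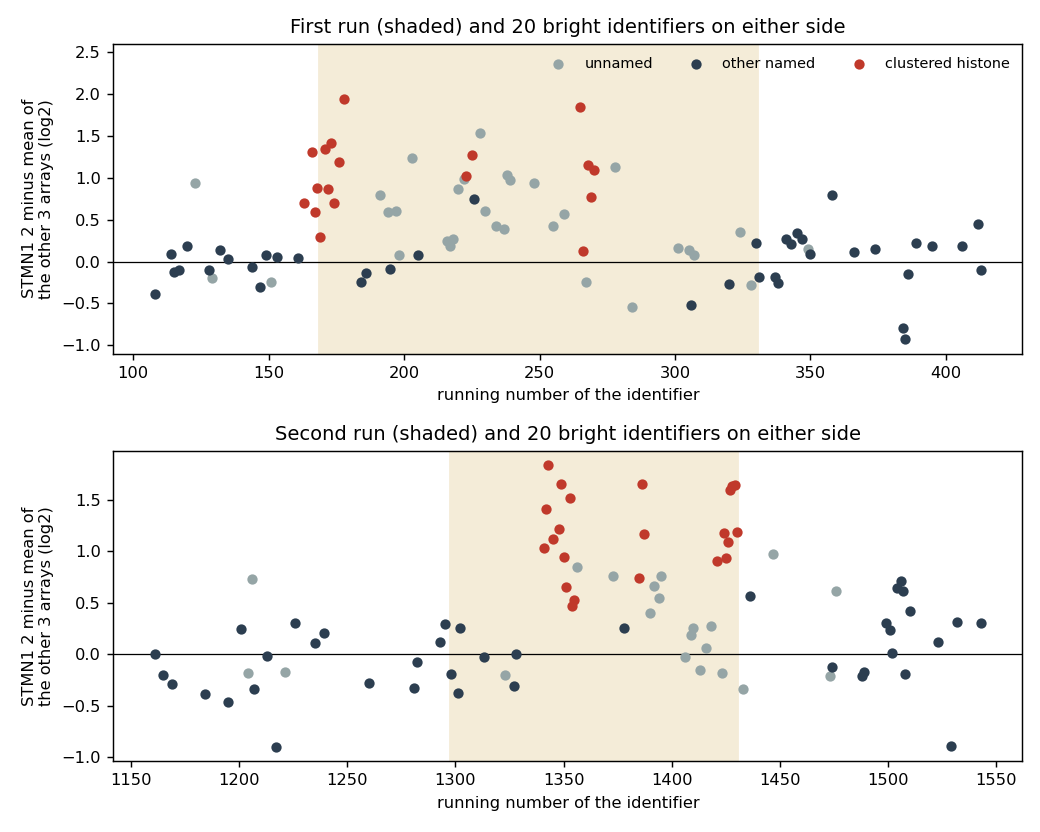
Excess of STMN1 replicate 2 (log2, array 2 of STMN1 minus the mean of the other 3 arrays) of each bright identifier against its running number, for the first run (top) and the second run (bottom), with 20 bright identifiers on either side of the shaded run. Clustered histone identifiers (red) lie between 0.13 and 1.94 inside the runs, while other named identifiers (dark) scatter around 0.

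The arrays can be set side by side, as the median deviation of the bright members from their mean over the 4 arrays. The 4 deviations of a member sum to 0, so a high value on 1 array lowers the others. The runs were picked on the replicate 2 arrays, so the values of both are a description with no test. In the first run it was 0 on STMN1 replicate 1, 0.44 on STMN1 replicate 2, -0.07 on vector replicate 1 and -0.34 on vector replicate 2. In the second run it was 0.05, 0.56, -0.2 and -0.33 in the same order. STMN1 replicate 2 was thus high, vector replicate 2 was low by a smaller amount, and STMN1 replicate 1 lay near 0. Vector replicate 1 lay near 0 in the first run and below it in the second, and over the histone members of both runs it was -0.31, beside -0.44 on vector replicate 2. All other bright TC06 identifiers had medians of 0.04, -0.01, -0.02 and -0.01.

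Of the 92 bright members, 36 list clustered histone genes, 15 list other genes and 41 are unnamed in the table used. The median excess was 1.16 for the histone members (2.23-fold; range 0.13 to 1.94), 0.4 for the unnamed members (range -0.54 to 1.53) and -0.08 for the other named members (range -0.51 to 0.74). STMN1 replicate 2 was the highest array for 35 of the 36 histone members, 24 of the 41 unnamed members and 5 of the 15 other named members. Over all 10930 bright identifiers it was the highest array for 25.8%. It lay at least 2-fold above the highest of the other 3 arrays for 13 members, 12 of them histones, against 0.247% of all bright identifiers. Its excess was at least 1 for 28 members, 24 of them histones, against 0.732% of all bright identifiers. In all, 27 bright identifiers of the table lay 2-fold above the highest other array, and 13 of these list clustered histones, 12 in the runs and 1 outside them.

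**Figure D2:**
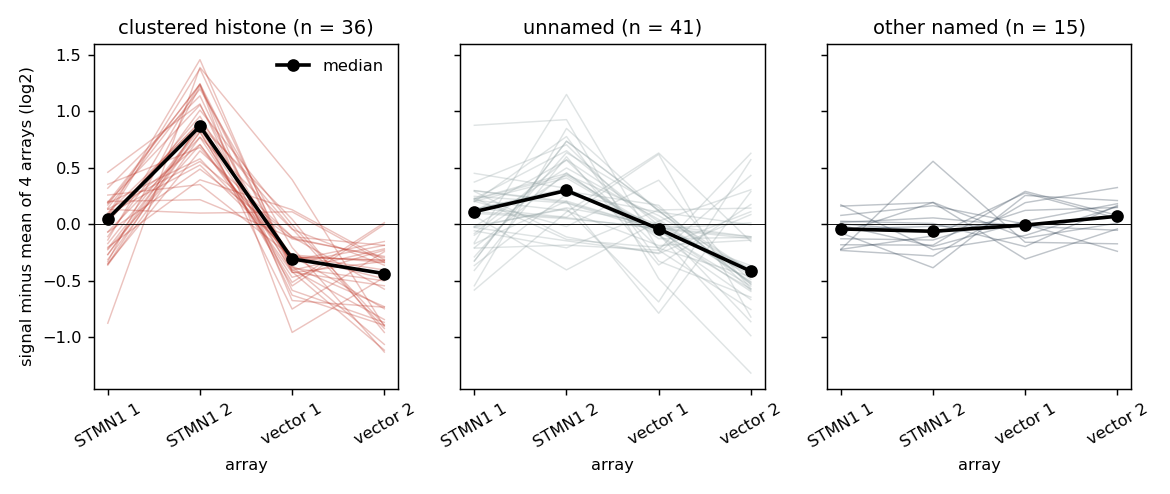
Log2 signal of each bright member on each array minus its mean over the 4 arrays, for clustered histone members, unnamed members and other named members (thin lines, 1 per identifier; black, median). The histone medians are 0.05, 0.87, -0.31 and -0.44, while the other named members stay between -0.06 and 0.07 at the median.

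Of the 25 bright members with the largest gap between STMN1 replicate 2 and the highest of the other arrays, 24 list clustered histones and 1 is unnamed. Of these, 10 list 1 gene: the H2B genes H2BC11, H2BC10, H2BC9, H2BC15, H2BC14, H2BC12 and H2BC17, the H2A gene H2AC12 and the linker histone genes H1-2 and H1-5. The other 14 list several genes of a family and are described by family only. In the following, values as deposited are given in the order STMN1 replicate 1, STMN1 replicate 2, vector replicate 1 and vector replicate 2.

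Among the H2B genes, which encode a partner of H2A in the nucleosome, H2BC10 had signals of 10.03, 11.53, 9.55 and 9.02, an excess of 1.94. Both STMN1 arrays lay above both vector arrays, and the log2 difference between the groups was 1.5 (SE 0.51; limma's adjusted p = 0.8). H2BC11 had 11.21, 12.72, 10.99 and 10.8 (excess 1.66) on 1 identifier. The groups again did not overlap, but STMN1 replicate 1 was closer to the vector arrays than to its own replicate. A second identifier that lists H2BC11 had 6.89, 7.43, 6.65 and 6.36 (excess 0.74), the same order of arrays with a smaller difference. H2BC14 had 9.55, 11.94, 10.83 and 9.7 (excess 1.85). There the groups overlapped: STMN1 replicate 1 was the lowest array and STMN1 replicate 2 the highest.

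H2BC12 was among the brightest members, with 15.81, 16.77, 15.83 and 14.99 (excess 1.17). Both replicate 1 arrays were nearly equal, with STMN1 replicate 2 above them and vector replicate 2 below. H2BC15 had 6.8, 7.95, 6.7 and 6.74 (excess 1.15), and H2BC9 had 5.66, 7.02, 5.68 and 6 (excess 1.19). In both, 3 arrays lay close together and STMN1 replicate 2 stood alone. The mean of H2BC9, 6.09, reached the brightness limit only through that array. The same held for other members, H2BC13 and the H2A identifier number 1425 among them. H2BC17 had 9.82, 11.03, 9.56 and 10.27 (excess 1.09), with STMN1 replicate 1 between the vector arrays. The remaining bright H2B members with 1 gene were H2BC13 (6.29, 6.74, 5.67 and 5.36; excess 0.91) and H2BC5 (7.8, 7.94, 7.49 and 7.48; excess 0.29). For both of these genes the gap between the 2 STMN1 arrays was smaller than the gap from either of them to the nearest vector array.

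The H2A gene H2AC12, listed in the table by its older name HIST1H2AH, had 7.24, 8.3, 6.81 and 6.86 (excess 1.28), and H2AC16 had 9.7, 10.21, 9.25 and 9.21 (excess 0.77). For both genes the STMN1 arrays lay above the vector arrays. Linker histone H1 sits on the DNA between nucleosomes. H1-2 had 8.72, 9.9, 8.54 and 8.89 (excess 1.12), and H1-5 had 5.96, 7.21, 5.77 and 6.46 (excess 1.09). In both, STMN1 replicate 1 lay between the vector arrays. H1-3 had 6.11, 6.79, 6.06 and 6.07 (excess 0.65), so 3 of its arrays lay within a narrow range and STMN1 replicate 2 above them.

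**Figure D3:**
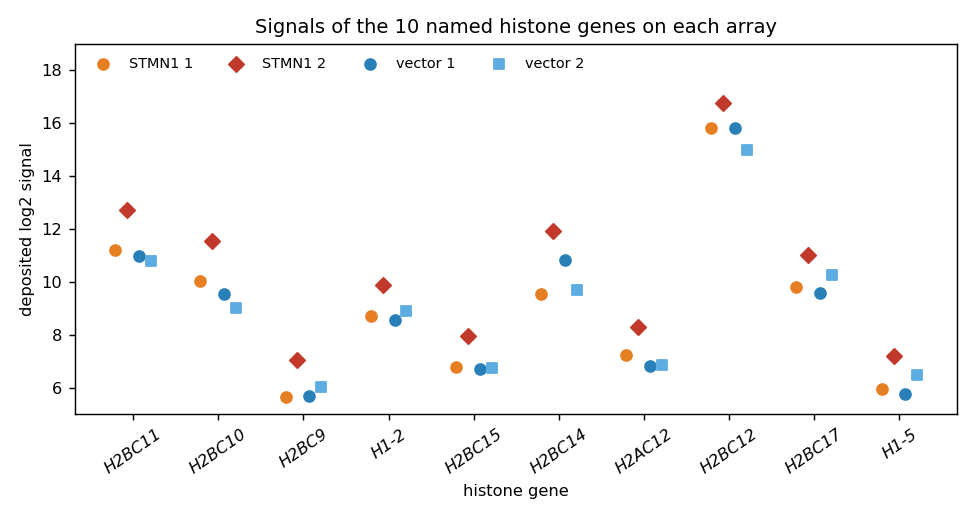
Deposited log2 signal on each of the 4 arrays (orange circle, STMN1 replicate 1; red diamond, STMN1 replicate 2; blue circle, vector replicate 1; light blue square, vector replicate 2) for the 10 histone genes listed alone among the 25 top-ranked members; the axis starts at 5. STMN1 replicate 2 is the highest array for all 10, while STMN1 replicate 1 lies above both vector arrays only for H2BC11, H2BC10, H2BC15 and H2AC12.

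Identifiers that list several genes and those that list 1 gave similar values. The median excess was 1.19 over the 21 with several genes and 1.12 over the 15 with 1 gene. By family it was 1.09 for H1 (3 identifiers), 1.19 for H2A (7), 1.16 for H2B (12), 1.46 for H3 (6) and 1.03 for H4 (7), and 1.66 for 1 identifier that lists H3 and H2A genes. Every family thus had a median excess above 1 among its bright members, picked by a mean that includes STMN1 replicate 2. The 10 dim histone members had a lower median excess, 0.35. The genes listed for H3 and for H4 are nearly the same set on each identifier, so these identifiers may share probes and are not independent of each other.

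The H3 identifiers held the largest family median. One of the brightest, number 1427, had 16.86, 18.04, 16.52 and 15.76 (excess 1.6), and number 1353 had 12.83, 13.77, 11.94 and 11.82 (excess 1.52). On both, the groups did not overlap, and STMN1 replicate 1 lay nearer to the vector arrays than to STMN1 replicate 2 in the first case and about midway in the second. Among the H4 identifiers, number 1428 had 7.7, 9.38, 7.66 and 7.71 (excess 1.63), where 3 arrays were nearly equal. Number 1424, among the brightest members, had 16.65, 17.93, 16.65 and 16.78 (excess 1.18), with the same 3 arrays level. The histone member that was not highest on STMN1 replicate 2 was the H4 identifier number 266, with 11.87, 11.96, 11.86 and 11.58 as deposited, where 3 arrays were within a narrow range and the excess was 0.13. After centring its highest array was STMN1 replicate 1, since the bright medians of the arrays differ (7.98, 8.1, 7.99 and 8.16).

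The 15 other named members, neighbours of the histone genes, had excesses around 0. BTN3A2 and BTN3A1, which encode butyrophilins recognised by a class of T cells, had excesses of -0.25 and -0.14. HMGN4, a nucleosome-binding protein gene, and ABT1, a gene of a nuclear protein that activates basal transcription, had -0.08 and 0.07. In the second run KIF13A (a kinesin motor), TPMT (a thiopurine-metabolising enzyme), DEK (a chromatin protein), MBOAT1 (a membrane-bound acyltransferase), TDP2 (a DNA repair phosphodiesterase) and C6orf62 had excesses between -0.38 and 0.25.

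ABT1 had 6.23, 6.39, 6.21 and 6.34, so its arrays lay within a narrow range. DEK had 10.65, 10.8, 10.2 and 10.63, with vector replicate 1 low and the other 3 arrays close together. TPMT had 8.92, 9, 9.36 and 9.66, with both STMN1 arrays below both vector arrays. The pseudogene GUSBP2 (0.26) and the RNA polymerase I subunit gene POLR1H (0.22) were also near 0, as was the small nucleolar RNA gene SNORD32B (-0.26), and 1 identifier shared by HCG15 and HCG16 had -0.51. The exception among the other named members was the microRNA gene MIR3143, number 226 and next after H2AC12, with 7.32, 8.22, 7.4 and 7.55 (excess 0.74), where STMN1 replicate 2 stood alone. The median of the 15 other named members was -0.08, close to the -0.02 of other bright TC06 identifiers.

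High values within the runs were not limited to the histone identifiers, while 2 end stretches without histones had lower medians than the runs. The 7 bright members of the second run that come before its first bright histone member had a median excess of -0.19. The 10 bright members of the first run that come after its last histone member had 0.11, with a range of -0.54 to 1.13. Among unnamed members between histone blocks, numbers 203, 238, 222 and 248 had excesses of 1.24, 1.04, 0.98 and 0.94. Just outside the first run, on its low side, numbers 166 to 168 list H4C3, H2AC6 and H1-4 and had excesses of 1.3, 0.59 and 0.87, so the histone block goes on past the edge of the run.

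At the edges themselves, the 10 bright identifiers below the first run had a median excess of 0.06 and the 10 above it 0.18, against 0.83 and 0.11 for the 10 lowest-numbered and the 10 highest-numbered bright members inside it. For the second run the values were 0.02 and 0.06 outside and -0.01 and 1.13 inside. The 10 members just above the brightness limit had a median of 0.5 and the 10 just under it 0.32. STMN1 replicate 2 enters the mean that sets the limit, so this gap is partly built in and nothing is read from it.

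The unnamed members held intermediate values. The largest excess was that of number 228, with 11.84, 13.28, 11.79 and 11.43 (excess 1.53), where STMN1 replicate 2 stood well above the others. Number 228 had 7 other identifiers within 0.1 on every array, and all 7 lay outside TC06. Whether its signal comes from chromosome 6 is not settled. Number 278 had 8.46, 9.98, 9.14 and 8.78 (excess 1.13), with STMN1 replicate 1 the lowest. Number 203 had 8.8, 8.97, 7.46 and 6.78 (excess 1.24). In that case both STMN1 arrays were high and close together. The lowest value was that of number 284, with 7.06, 6.7, 7.03 and 7.47 (excess -0.54), where STMN1 replicate 2 was the lowest array. Of the 41 bright unnamed members, 23 had another identifier with values within 0.1 on every array, and for 21 of these such an identifier lay outside TC06. The share of all bright identifiers with such a match was not counted, and identifiers with similar signals can match by coincidence. Whether these members share probes with other places in the genome was not tested.

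Dim members, with a mean under 6, were not used to choose the runs, although they come from the same arrays. The 10 dim histone members, counted among 46 histone members in all, had a median excess of 0.35. The excess lay above 0 for 10 of 10, against 837 of 3197 dim TC06 identifiers outside the runs. Some of the 10 list the same H4 or H2B genes as bright members, so they are not separate from the choice. H2BC3 had 5.01, 6.09, 4.42 and 4.79 (excess 1.29), again highest on STMN1 replicate 2. The testis-specific linker histone gene H1-6 differed, with 5.64, 5.63, 4.84 and 4.46, both STMN1 arrays being equally high. The 57 dim members that list other genes had a median excess of -0.12, close to the -0.11 of dim TC06 identifiers outside the runs. For the 109 dim unnamed members it was 0.07.

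Between the groups, the median difference (STMN1 minus vector) of the dim members was 0.12 in the first run and 0.12 in the second (2 arrays against 2, two-sided exact permutation test over arrays, p = 0.667 for each; the smallest p this design allows is 0.333). For the 10 dim histone members the difference was 0.4 (exact p = 0.333). Without vector replicate 2 the difference was -0.01 in both runs.

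The replicate 1 arrays, 1 of each group, entered the means that the choice of members used, so their values too are a description with no test. Their median difference (STMN1 minus vector) was 0.05 in the first run, 0.2 in the second, 0.26 over the 36 bright histone members and 0.04 over all bright identifiers. Against both vector arrays, STMN1 replicate 1 was higher by a median of 0.41 for the histone members, against 0.04 for all bright identifiers. After centring, it lay above both vector arrays for 26 of 36, where 40% of all bright identifiers did so. By family this difference was 0.81 for H3, 0.57 for H2A, 0.41 for H2B, 0.1 for H1 and 0.04 for H4. The families differ in number (3 H1 identifiers, 6 H3) and were grouped after values had been seen, and the difference between families was not tested.

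For the comparison of the groups, limma was fitted over the 45592 identifiers of the table whose mean passed the 25th percentile, 248 of them members of the runs. At an adjusted p under 0.05 it called 0 members higher and 0 lower, and 0% of all identifiers tested. The smallest adjusted p of a member was 0.601. At an unadjusted p under 0.05, 40 members were higher with STMN1 and 4 lower, against 2.58% and 3.32% of all identifiers tested in those directions. These counts take every row, identical ones included. With identical rows counted once, 35 of 227 members were higher in the same limma fit and 4 lower. With each array left out in turn, the number of members under that p changed. The share of all identifiers in those fits is not given here, so nothing is read from the change. Of the 36 bright histone members, 15 were higher at an unadjusted p under 0.05 and 0 lower, and these 15 included all 6 H3 identifiers. Of the 44 histone members tested, dim ones included, 17 were higher at that level. Overlap was counted on the centred values, where the order of close arrays can differ from that as deposited, as it does for H1-2. The groups did not overlap, with STMN1 higher, for 45 of the 92 bright members and 25 of the 36 histone members, against 23.5% of all bright identifiers. With STMN1 lower, they did not overlap for 8 of the 92 bright members, against 2110 of all 10930 bright identifiers. The 8 included 0 histone members and 7 of the 15 other named members. The rule used these arrays, so nothing is read from these counts about the groups.

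Clustered histone genes outside the runs were mostly highest on the same array. All 17 bright identifiers of this kind had an excess above 0, with a median of 0.69 and a range of 0.03 to 1.44, and 13 of the 17 were highest on STMN1 replicate 2. On chromosome 6 outside the runs the median was 0.79 over 6 identifiers, and H4C3 had 14.51, 15.81, 15.04 and 13.8. On chromosome 1 it was 0.65 over 11 identifiers, 7 of them highest on STMN1 replicate 2, although the 1225 bright chromosome 1 identifiers together had a median of -0.17. H2AC21, on chromosome 1, had 10.21, 11.38, 10.39 and 10.27 (excess 1.03), with 3 arrays close together. H2BC21 had 9.64, 10.25, 10.44 and 9.72 (excess 0.26), with vector replicate 1 the highest. The chromosome 1 identifiers share families, and some of them the same listed genes, with those of chromosome 6.

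Genes of other lists were higher on the same array to different degrees, and their part in the histone values was not tested. These lists, like the grouping by histone family, were drawn up after values had been seen. Of 32 genes of DNA replication and S phase, 24 had an identifier of their own and 19 were bright. Those 19 had a median excess of 0.61 (range 0.05 to 1.49), and 17 of them were highest on STMN1 replicate 2. MCM2, a subunit of the replicative helicase, had 8.06, 9.66, 8.41 and 7.85 (excess 1.49). POLA2, a subunit of the DNA polymerase that starts new strands, had 8.87, 10.36, 9.07 and 9.02 (excess 1.31). Other examples were MCM3 (1.09), MCM10 (0.98), the licensing factor CDC6 (0.82) and the thymidylate synthase gene TYMS (0.61). The smallest excesses were those of RRM2 (0.37), PRIM1 (0.3), CHAF1A (0.09) and SLBP (0.05). SLBP is also in the list of histone mRNA processing below. On STMN1 replicate 1 the median of the 19 S phase genes against both vector arrays was -0.14, beside 0.41 for the histone members of the runs, 0.04 for the H4 identifiers among them and -0.05 for the clustered histones of chromosome 1. These differences were not tested.

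The 13 bright genes of G2 and mitosis had a median excess of 0.23 (range -0.14 to 0.9), with 9 highest on STMN1 replicate 2. CCNB1, the mitotic cyclin, had 11.92, 12.26, 12.02 and 12.02 (excess 0.22), while CDK1, the kinase it activates, had 8.17, 7.93, 7.58 and 8.29 (excess -0.14). In RNA from a whole culture, more cells in a stage of the cycle and more RNA per cell cannot be told apart.

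Histone genes outside the clusters had a median excess of 0.58 over 5 bright genes. H2AX, whose protein is phosphorylated at DNA breaks, had 7.85, 9.1, 7.83 and 7.69 (excess 1.25), with 3 arrays level. MACROH2A1 had an excess of -0.13. Among 6 bright genes of histone mRNA transcription and processing the median was 0.14. SLBP, whose protein binds the stem-loop of histone mRNA, had 7.49, 7.71, 7.53 and 7.79 (excess 0.05), and its arrays lay close together. NPAT, a coactivator of histone genes and dim here, had 5.21, 5.79, 5.29 and 5.07 (excess 0.54).

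Other genes for short RNAs without a poly(A) tail were not high on STMN1 replicate 2 at the median. Single identifiers reached an excess of 0.56 (RNU), 1.77 (SNORA and SNORD) and 0.65 (RNA5S). Their bearing on the histone values was not tested. The median excess was -0.15 over 57 bright RNU small nuclear RNA identifiers, -0.22 over 94 bright SNORA and SNORD identifiers and -0.33 over 66 bright 5S ribosomal RNA genes and pseudogenes (RNA5S). STMN1 replicate 2 was the highest array for 1 of the 57, 6 of the 94 and 2 of the 66.

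**Figure D4:**
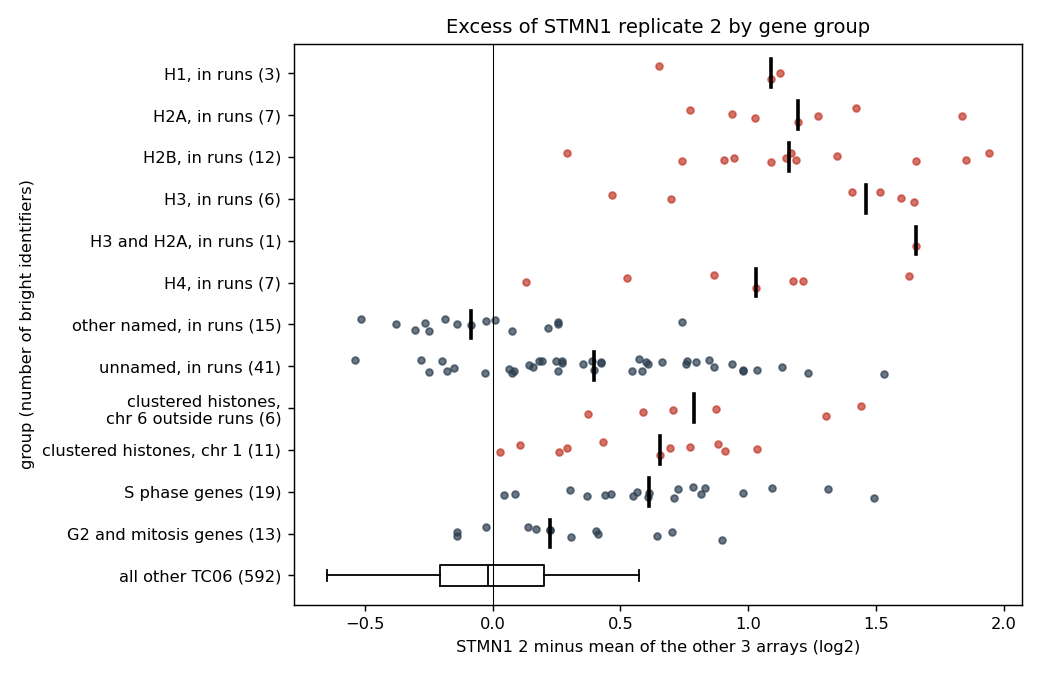
Excess of STMN1 replicate 2 (log2, minus the mean of the other 3 arrays) of bright identifiers by gene group, with the number of identifiers in brackets; points are identifiers, black bars are medians, and the box of all other TC06 identifiers shows quartiles with whiskers from the 5th to the 95th percentile. The histone families in the runs have medians of 1.03 or more and the S phase genes 0.61, against -0.02 for all other TC06 identifiers.

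Brighter histone members had a larger excess, though the means that set the classes include STMN1 replicate 2. The median was 0.94 for histone members with a mean of 6 to 8, 1.03 for 8 to 10 and 1.47 for 10 or more. Other bright TC06 identifiers in the same classes had medians of -0.02, -0.05 and 0.01. No member held the highest value of an array, which is not a test of saturation.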

How the data were processed

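RNA from 4 KYSE 170 samples, 2 labelled STMN1 and 2 vector, was hybridised to single-colour Cy3 arrays. The authors deposited 1 table with a log2 signal per identifier and array. That they are log2 values was inferred from their range (1.64 to 19.93). Agilent Feature Extraction 10.7.1.1 was used, per the submitters' processing notes. Not given in the sources used here are the normalization, any background correction and the build of the genome. The identifiers have the form of Affymetrix transcript clusters, and how they were made from spots is not stated. The table carries no detection calls, so only the small number of arrays is known to limit the precision.

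Genes were taken from the platform annotation, updated to RefSeq symbols: of 60789 identifiers, 21225 have 1 symbol, 1288 several and 38276 none. No gene was named from an identifier with several. Arrays were centred on the median of bright identifiers (mean of at least 6), and identical values were counted once, except among the rows fitted by limma. limma 3.58.1 (R 4.3.3) was fitted over 45592 identifiers with Benjamini-Hochberg adjustment, and tested on simulated data. Up to 25 bright members with the largest gap of STMN1 replicate 2 over the highest other array were to be named. The members, the histone families and the other gene lists were chosen with earlier results of these data known. Deviations of same-numbered arrays correlated at r = 0.14, and 2 pairs are too few to settle a pairing.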

Additional observations from a re-analysis of the deposited data

How the results depend on the processing

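The direction of the excess was the same under every scaling, brightness limit and left-out array tried, but its size in the runs depended on which members entered. The first-run excess of 0.59 was 0.4, 0.77 and 0.98 with brightness limits of 5, 7 and 8, 0.08 over all members, and 0.35 without the 10 members of largest excess. The second-run excess of 0.74 was 0.94 with a limit of 8, 0.19 over all members, and 0.47 without its top 10. The contrasts with other TC06 identifiers, 0.6 and 0.76, were 1 and 0.96 with a limit of 8 and 0.19 and 0.29 over all members. The second-run difference of the replicate 1 arrays, 0.2, was 0.1 over all members. The limits act through the members they admit. Without STMN1 replicate 2 the excess has no value. Without each other array in turn, it ranged from 0.45 to 0.69 (first run), 0.59 to 0.81 (second run), 1.12 to 1.19 (histone members), 0.61 to 0.73 (histones outside the runs) and 0.63 to 0.72 (S phase genes), and the contrasts from 0.46 to 0.68 and 0.6 to 0.8. The excess of members without a clustered histone, 0.26, was 0.34 with equal 75th percentiles and 0.15 to 0.28 without an array. The group difference of dim members, 0.12 in each run, ranged from -0.01 to 0.24 and from -0.01 to 0.25, and was reversed at -0.01 in both runs without vector replicate 2. The cause was not tested. limma called 0 members with the replicate block, which left 35 higher and 4 lower at an unadjusted p under 0.05 in place of 40 and 4, and 0 under every other alternative, including each array left out.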
